A study of Arabidopsis thaliana with 15 samples.

Results

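The comparison set 3 libraries of whole Arabidopsis thaliana seedlings treated for 4 h with GR24 4DO against 3 libraries of seedlings kept for 4 h in solvent, and these 6 libraries are among 15 in the series. Seedlings of both groups were wild type of the Col ecotype, were 10 days old, had grown on sugar-containing agar, and spent 2 h in liquid culture medium before the start. One group then received 5 µM GR24 4DO and the other solvent, whose composition is not named. The remaining 9 libraries are solvent seedlings at 0 h and 2 h and seedlings with 5 µM GR24 4DO for 2 h, 3 of each, and are used here to estimate the spread and for the response at 2 h. Genes were taken where at least 1 RPKM was reached in 3 or more of the 6 libraries of 4 h. RPKM is the number of reads per length of gene, scaled to the reads assigned to genes in the library, a level that can be compared between genes. By this rule 18711 of the 32678 genes of the table were tested, while 6395 others had a value above 0 but stayed under the minimum and 7572 were at 0 in all 6 libraries. Whole seedlings mix roots, leaves and stems, so fewer cells of a type and less RNA per cell cannot be told apart.

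GR24 is a synthetic strigolactone, and its 4DO form carries the stereochemistry of the natural strigolactone 4-deoxyorobanchol. Strigolactones bind the hydrolase D14, which then joins the F-box protein MAX2 and marks the repressors SMXL6, SMXL7 and SMXL8 for destruction. The related receptor KAI2 acts through the same F-box protein on SMAX1 and SMXL2 and mediates the response to karrikins, compounds found in smoke. Removal of these repressors releases transcription, and some of the released genes encode the repressors themselves. In Arabidopsis these pathways are known for control of shoot branching, seedling light responses, root hairs and anthocyanin.

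The 6 libraries held 25191669 to 36918298 reads, recovered as whole numbers from the RPKM values. The first principal component of the 6 libraries carried 55.2% of the variance and separated the groups, but solvent replicate 2 (-4.73) and GR24 4DO replicate 3 (3.69) lay closer to the middle than the other replicates, at -17.2 and -17.2 for solvent and at 15.6 and 19.8 for GR24 4DO. The reads of solvent replicates 1 and 3 differed little more than sampling allows, with a chi-square of 1.12 per degree of freedom (p = 1.9e-34), and those of GR24 4DO replicates 1 and 2 were also close, at 1.84. Solvent replicates 2 and 3 of 2 h were at 1.71, and the other 12 pairs of the series were between 3.72 and 18.56. The libraries were kept as separate samples because the difference exceeded sampling noise. Counts with each close pair averaged are given beside the main ones for many lists and families, but not for all. Whether replicates are separate cultures is not stated, so the p-values refer to the spread between these libraries, which may be technical. Of 13 root, 10 shoot and 2 phloem markers none was at 0 in any of the 6 libraries. Their summed levels ran from 123 to 136 RPKM in solvent and from 123 to 132 RPKM with GR24 4DO for root, and from 9940 to 11400 and from 10800 to 12400 RPKM for shoot. For phloem they ran from 56.6 to 65.4 RPKM in solvent and from 45.8 to 50.3 RPKM with GR24 4DO, groups that did not overlap. Such a lack of overlap was seen in 33.8% of all genes tested. The 2 phloem markers were SUC2, with means of 49.8 and 36.2 RPKM, and APL, with a log2 difference of -0.05.

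GR24 4DO at 4 h gave many small changes and few large ones. At a Benjamini-Hochberg adjusted p under 0.05 in limma, 910 genes (4.86%) were higher and 814 genes (4.35%) were lower with GR24 4DO. Such genes are the called genes below. Rose or fell is said of levels with GR24 4DO relative to solvent at 4 h, not of change over time. A difference is that of log2(RPKM + 1), a scale that makes changes of genes with low levels look smaller. The median ratio of the group means was 1.38 for genes called higher and 0.751 for genes called lower, and 46 higher and 41 lower genes reached a ratio of 2. A ratio of 3 was reached by 7 higher genes and 1 lower gene. The median difference of all genes tested was 0.02 and the median standard error 0.092. The 3 libraries of each group did not overlap for 1704 of the 1724 called genes, against 33.8% of all genes tested. With the close pairs averaged, which leaves 2 libraries in each group of 4 h, 260 genes were called higher and 204 lower. All 464 were among the 1724. Counts in lists and families below are to be read beside 4.86% and 4.35%. With the close pairs averaged they are to be read beside 260 and 204 of 18711 genes. Without the 2 libraries that lay nearer the middle, 1480 were called higher and 814 lower, of which 686 and 596 were among the main calls. This setting leaves only the close pair in each group of 4 h. Leaving out solvent replicate 1 or 3 or GR24 4DO replicate 1 or 2, each a member of a close pair, gave 937, 952, 928 and 899 calls. The share of genes called was larger at higher levels, from 5.35% under 2 RPKM to 12% at 50 RPKM or more.

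**Figure D1:**
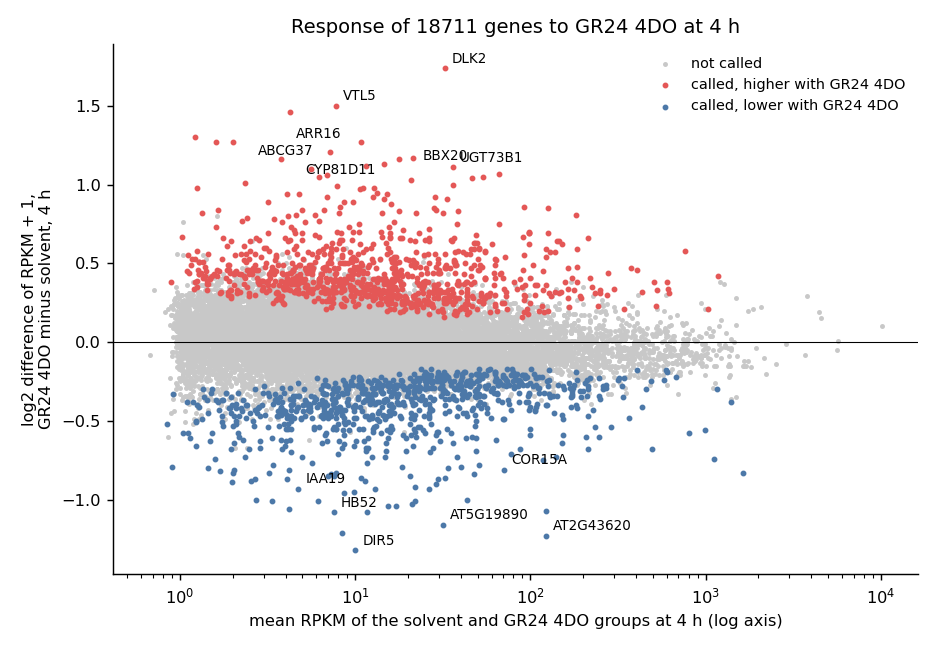
Difference between GR24 4DO and solvent at 4 h (log2 of RPKM + 1, vertical axis) against the mean level of both groups (RPKM, log axis) for the 18711 genes tested; red points are called higher, blue points called lower and grey points not called. DLK2 stands at the top with 1.74 and DIR5 at the bottom with -1.32.

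Stretches of 250 bases before the annotated start of 6 genes are shown as examples from the 3 patterns described below. The patterns are repressor and receptor-like genes that rose, lists of detoxification genes with many that rose, and an auxin gene that fell. GSTU7 stands for its list, and its own level is not given below. The stretches were read from RefSeq TAIR10.1 on the strand of the gene, 5′ to 3′. Capitals mark a match, on either strand, of the 1 motif named for that gene. In the first pair, DLK2 (chr3:8865240-8865489, minus strand) and SMXL7 (chr2:12775958-12776207, plus strand), the motif searched was ATAACAA, a sequence reported to be bound by SMXL6. It is present 2 times in SMXL7, starting 26 and 16 bases before the gene, and the letters are not in this window of DLK2. In CYP81D11 (chr3:10790554-10790803, minus), UGT73B3 (chr4:16344819-16345068, minus) and GSTU7 (chr2:12618900-12619149, minus) the motif was TGACG, the core bound by TGA factors, with 1, 2 and 3 matches, of which 2 in GSTU7 overlap. In IAA19 (chr3:5263751-5264000, plus) it was TGTCTC, the auxin response element, with 3 matches. Matches of the other motifs are left in lower case. These are TGACG in DLK2, 163 bases before the gene, and ATAACAA in IAA19, 108 bases before the gene. GSTU7 and IAA19 have the most matches of their motif in their lists. OPR1 has no TGACG in its window, so the genes shown need not be typical of their lists.
DLK2: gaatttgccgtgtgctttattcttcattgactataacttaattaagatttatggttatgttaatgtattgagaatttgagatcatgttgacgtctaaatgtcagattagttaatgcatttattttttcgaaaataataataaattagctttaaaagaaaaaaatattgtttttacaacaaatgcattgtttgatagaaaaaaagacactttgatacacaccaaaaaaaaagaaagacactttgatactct
SMXL7: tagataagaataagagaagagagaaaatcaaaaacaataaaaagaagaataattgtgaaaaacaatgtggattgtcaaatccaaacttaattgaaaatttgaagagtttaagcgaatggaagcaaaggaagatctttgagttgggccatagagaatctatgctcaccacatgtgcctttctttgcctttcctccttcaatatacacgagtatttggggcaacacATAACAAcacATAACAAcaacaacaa
CYP81D11: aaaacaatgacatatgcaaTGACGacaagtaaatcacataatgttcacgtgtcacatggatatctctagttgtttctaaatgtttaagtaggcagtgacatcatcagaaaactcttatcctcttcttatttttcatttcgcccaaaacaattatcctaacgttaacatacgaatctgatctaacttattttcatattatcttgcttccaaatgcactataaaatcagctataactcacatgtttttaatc
UGT73B3: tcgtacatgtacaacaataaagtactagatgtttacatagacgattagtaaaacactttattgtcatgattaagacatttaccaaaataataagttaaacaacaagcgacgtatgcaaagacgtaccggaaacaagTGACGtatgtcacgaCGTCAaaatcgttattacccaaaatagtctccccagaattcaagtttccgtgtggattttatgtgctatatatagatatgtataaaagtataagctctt
GSTU7: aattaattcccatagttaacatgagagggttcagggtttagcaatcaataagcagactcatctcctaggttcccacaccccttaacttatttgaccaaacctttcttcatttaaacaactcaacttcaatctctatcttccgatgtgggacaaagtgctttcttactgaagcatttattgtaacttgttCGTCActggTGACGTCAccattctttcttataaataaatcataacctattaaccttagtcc
IAA19: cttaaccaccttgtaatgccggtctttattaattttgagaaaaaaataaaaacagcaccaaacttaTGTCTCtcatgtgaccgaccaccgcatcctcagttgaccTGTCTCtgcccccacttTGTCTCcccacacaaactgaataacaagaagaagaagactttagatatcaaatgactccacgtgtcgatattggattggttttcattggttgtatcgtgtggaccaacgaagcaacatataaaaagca

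Among the same windows of 18398 tested genes, ATAACAA occurred in 11.4%, TGACG in 19.3% and TGTCTC in 10.6%. The shares were 11.6%, 22.7% and 11.4% among genes called higher and 12%, 17.6% and 9.06% among genes called lower. ATAACAA was found in 1 of 6 strigolactone signalling genes and 0 of 8 karrikin signalling genes. TGACG was found in 5 of 10 glycosyltransferase and electrophile response genes and 8 of 16 glutathione transferase genes, and TGTCTC in 7 of 16 auxin response genes. TGACG was also in 2 of 6 strigolactone signalling, 1 of 8 karrikin signalling and 4 of 16 auxin response genes. A match describes letters in a short window and is not a known site of binding.

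Among receptors, the level of DLK2 moved most. DLK2 (AT3G24420), a paralogue of D14 and KAI2 that is widely used as a reporter of strigolactone and karrikin response, was at 14.5, 14.8 and 14.1 RPKM in solvent and at 49.4, 48.3 and 54 RPKM with GR24 4DO. The groups were far apart, and DLK2 had both the highest difference and the smallest adjusted p of the genes tested (difference 1.74, SE 0.06, adjusted p = 1.8e-10). D14 (AT3G03990), the strigolactone receptor, was at 45, 41.3 and 42.6 RPKM in solvent and at 33.9, 34.1 and 36.3 RPKM with GR24 4DO. It fell, with no overlap between groups (difference -0.30, SE 0.07, adjusted p = 0.00903). That call ended with the close pairs averaged (adjusted p = 0.181). KAI2 (AT4G37470), the karrikin receptor, was at 53.7, 54.4 and 53.9 RPKM in solvent and at 57.8, 52.3 and 53.8 RPKM with GR24 4DO, and the groups overlapped. Its difference was 0.02 with a 95% interval from -0.12 to 0.15, and its sign changed with another scaling. MAX2 (AT2G42620), the F-box gene shared by both pathways, was at 18.9, 16.8 and 19 RPKM in solvent and at 15.2, 14.4 and 17.6 RPKM with GR24 4DO (difference -0.20, adjusted p = 0.122). It was not called, nor in 16 of 19 alternatives. It was called at an adjusted p of 0.037 without GR24 4DO replicate 3. With replicate numbers blocked within the 6 libraries its adjusted p was 0.031. Without the 2 libraries nearer the middle it was 0.0178, a setting that leaves only the close pairs at 4 h.

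The 3 repressor genes of the D14 pathway rose together. SMXL7 (AT2G29970) was at 8.47, 8.99 and 7.9 RPKM in solvent and at 16.9, 17.8 and 15.8 RPKM with GR24 4DO (difference 0.92, SE 0.09, adjusted p = 4.64e-06). SMXL8 (AT2G40130), the least abundant of them, was at 1.19, 1.46 and 1.05 RPKM in solvent and at 3.69, 3.61 and 3.19 RPKM with GR24 4DO (difference 1.01, SE 0.09, adjusted p = 4.21e-06). SMXL6 (AT1G07200) was at 6.18, 5.96 and 6.27 RPKM in solvent and at 10.4, 10.8 and 9.53 RPKM with GR24 4DO (difference 0.65, SE 0.11, adjusted p = 0.0008). In each of the 3 genes the lowest treated library was above the highest solvent library, and the ratios of means were 1.99, 2.84 and 1.67. The calls held in each of 19 alternatives run for SMXL6 and SMXL7 and of 18 for SMXL8.

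The repressor genes of the karrikin branch moved less evenly. SMXL2 (AT4G30350) was at 9.59, 10.2 and 9.6 RPKM in solvent and at 19.6, 20 and 18.4 RPKM with GR24 4DO (difference 0.91, SE 0.08, adjusted p = 1.51e-06). SMAX1 (AT5G57710), the main repressor of that branch, was at 65.2, 59.8 and 68.2 RPKM in solvent and at 79.8, 80.4 and 82.1 RPKM with GR24 4DO (difference 0.32, adjusted p = 0.00242). Its call ended with each library's trend with gene length removed, at an adjusted p of 0.192. SMXL3, SMXL4 and SMXL5 belong to the same protein family and act in phloem formation. SMXL3 was called at a difference of 0.34 (adjusted p = 0.0378), a call lost in 9 of 18 alternatives, where its adjusted p reached 0.31. SMXL4 and SMXL5 were at 0.19 and 0.15 and were not called.

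Downstream genes of the pathways rose as well. BBX20 (AT4G39070), a B-box factor that promotes anthocyanin and light responses, was at 12.7, 11.7 and 14 RPKM in solvent and at 29.6, 29 and 31.7 RPKM with GR24 4DO (difference 1.17, SE 0.11, adjusted p = 4.3e-06). KUF1 (AT1G31350), an F-box gene induced by karrikin, was at 14.9, 12.8 and 14.4 RPKM in solvent and at 21.1, 20.8 and 26.6 RPKM with GR24 4DO (difference 0.66, SE 0.09, adjusted p = 0.00024). KUF1 was highest in replicate 3 of the treated group, and the groups did not overlap. In all, 4 of 6 tested strigolactone signalling genes rose and 1 fell, with a median difference of 0.79, and 5 of 8 karrikin signalling genes rose and 0 fell, with a median of 0.33, against a median of 0.02 over all genes. With the close pairs averaged the counts were 4 and 0, and 4 and 0. The karrikin signalling list takes in SMXL3, SMXL4 and SMXL5, which act in phloem formation, and SMXL3 is 1 of its 5 calls. BRC1 and BRC2, factors that restrain bud outgrowth, stayed under the minimum. For BRC1 the solvent libraries held 2, 1 and 1 reads and the treated libraries 8, 10 and 12, and for BRC2 they held 3, 3 and 2 against 5, 6 and 3.

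Of the strigolactone synthesis genes, 2 were tested. LBO (AT3G21420), an oxidoreductase of a late step, was at 4.23, 4.8 and 4.25 RPKM in solvent and at 3.12, 3.16 and 2.94 RPKM with GR24 4DO, and fell (difference -0.41, SE 0.08, adjusted p = 0.00412); with the close pairs averaged its adjusted p was 0.0551. MAX1, a cytochrome P450 that makes the precursor of active strigolactones, was at 13.1, 12.9 and 12.7 RPKM in solvent and at 16, 15.1 and 14.9 RPKM with GR24 4DO (difference 0.23, adjusted p = 0.063) and was not called. The early synthesis genes D27, a carotene isomerase, and CCD7 and CCD8, which cleave carotenoids, were under the minimum. The solvent libraries held 55, 50 and 47 reads of CCD8 against 25, 31 and 43 in the treated libraries, and 11, 17 and 16 reads of D27 against 24, 32 and 27. No library held more than 3 reads of CCD7.

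**Figure D2:**
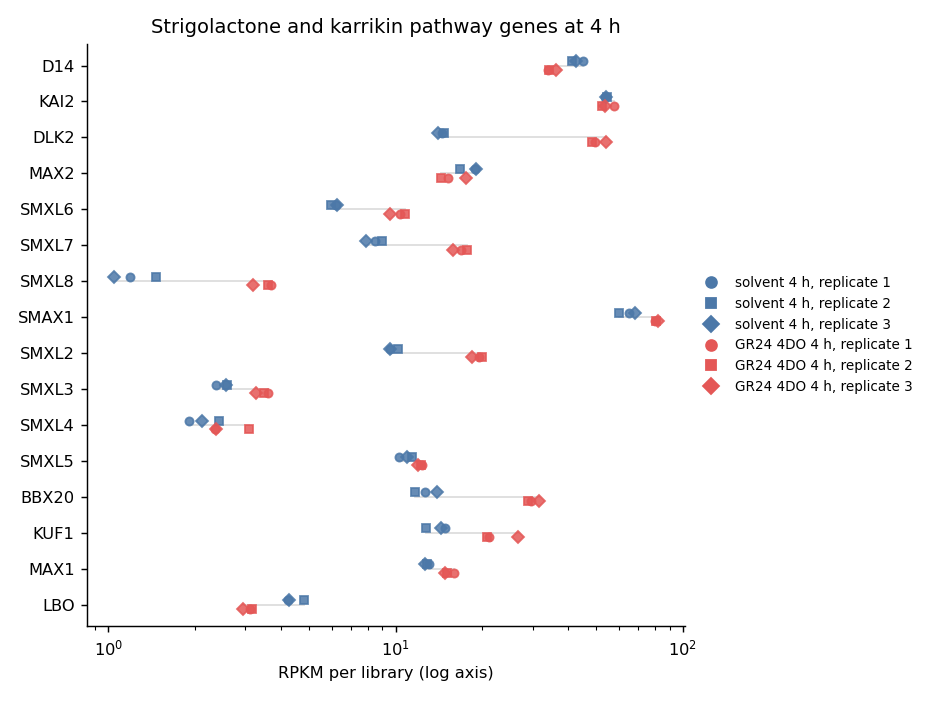
RPKM (log axis) of 16 strigolactone and karrikin pathway genes in each of the 3 solvent libraries (blue) and the 3 GR24 4DO libraries (red) at 4 h, with 1 symbol shape per replicate. DLK2, SMXL7, SMXL8, SMXL2 and BBX20 show the widest gaps, KAI2 lies between 52.3 and 57.8 RPKM in all 6 libraries, and D14 and LBO lie lower with GR24 4DO.

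With DLK2, the 15 highest differences belonged to genes of several kinds. VTL5 (AT3G25190), of the vacuolar iron transporter family, was at 2.96, 4 and 3.7 RPKM in solvent and at 11.2, 12.8 and 11.6 RPKM with GR24 4DO (difference 1.5, SE 0.12, adjusted p = 1.07e-06). AT5G56840, a myb-like transcription factor gene, was at 1.82, 1.66 and 1.93 RPKM in solvent and at 6.49, 6.87 and 6.72 RPKM with GR24 4DO (difference 1.46, SE 0.14, adjusted p = 4.21e-06). ARR16, a type-A response regulator of cytokinin signalling, was at 5.84, 6.04 and 5.71 RPKM in solvent and at 15.8, 15.8 and 15.1 RPKM with GR24 4DO (difference 1.27, SE 0.09, adjusted p = 3e-07). ABCG37, a transporter that exports phenolic compounds from roots, was at 3.84, 4.06 and 3.89 RPKM in solvent and at 10.8, 11.1 and 9.33 RPKM with GR24 4DO (difference 1.21, SE 0.12, adjusted p = 9.3e-06). In these 4 genes each treated library was above every solvent library, as the rule for choosing them required. Of the 15, 3 were under 1 RPKM in solvent: AT1G30250, of unknown function, with a mean of 0.283 RPKM in solvent and 2.15 RPKM with GR24 4DO, AT2G22590, of the UDP-glycosyltransferase family, with 0.525 and 2.67 RPKM, and the beta-glucosidase gene BGLU47 with 0.747 and 3.26 RPKM. Their log2 differences of 1.3, 1.27 and 1.27 stand for ratios of 7.62, 5.1 and 4.36. The remaining genes were CYP81D11 and UGT73B1, described below, AGP13 (an arabinogalactan protein; 8.84 to 20.4 RPKM), the ERF-type factor genes AT1G71520 (6.91 to 16.2 RPKM) and AT1G64380 (3.19 to 7.99 RPKM), and AT3G28270, of a family with no assigned function (1.96 to 5.62 RPKM).

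The 15 lowest differences also belonged to genes of several kinds. DIR5 (AT1G64160), a dirigent protein of the kind that directs coupling of lignans, was at 13.8, 16.6 and 13.6 RPKM in solvent and at 4.8, 5.77 and 5.22 RPKM with GR24 4DO (difference -1.32, SE 0.10, adjusted p = 4.17e-07). AT2G43620, of the chitinase family, was at 170, 171 and 174 RPKM in solvent and at 69, 66.9 and 82.2 RPKM with GR24 4DO (difference -1.23, SE 0.08, adjusted p = 6.56e-08). AT5G62280, a gene with a domain of unknown function, was at 11.7, 13.7 and 11.1 RPKM in solvent and at 4.21, 4.38 and 5.52 RPKM with GR24 4DO (difference -1.21, SE 0.09, adjusted p = 4.88e-07). No treated library reached a solvent library in any of the 3, as the rule for choosing them required. Peroxidase genes took 3 more places. AT5G19890 was at 40.4, 48.9 and 43.1 RPKM in solvent and at 20.5, 20.2 and 17.1 RPKM with GR24 4DO, AT1G49570 had means of 29.8 and 14.3 RPKM, and AT5G39580 means of 58.5 and 28.7 RPKM. The homeobox gene HB52 had means of 10.6 and 4.47 RPKM, ST2A, a sulfotransferase that acts on a jasmonate derivative, 28.6 and 13.5 RPKM, ORS1, of a family that promotes organ size, 8.55 and 3.71 RPKM, and the lipid transfer protein gene AT4G22470 166 and 78.6 RPKM. The other 5 were AT5G20820 (of the SAUR family), AT5G12050, AT3G20395, AT3G21352 and AT5G44575, with differences from -1.08 to -1.01.

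**Figure D3:**
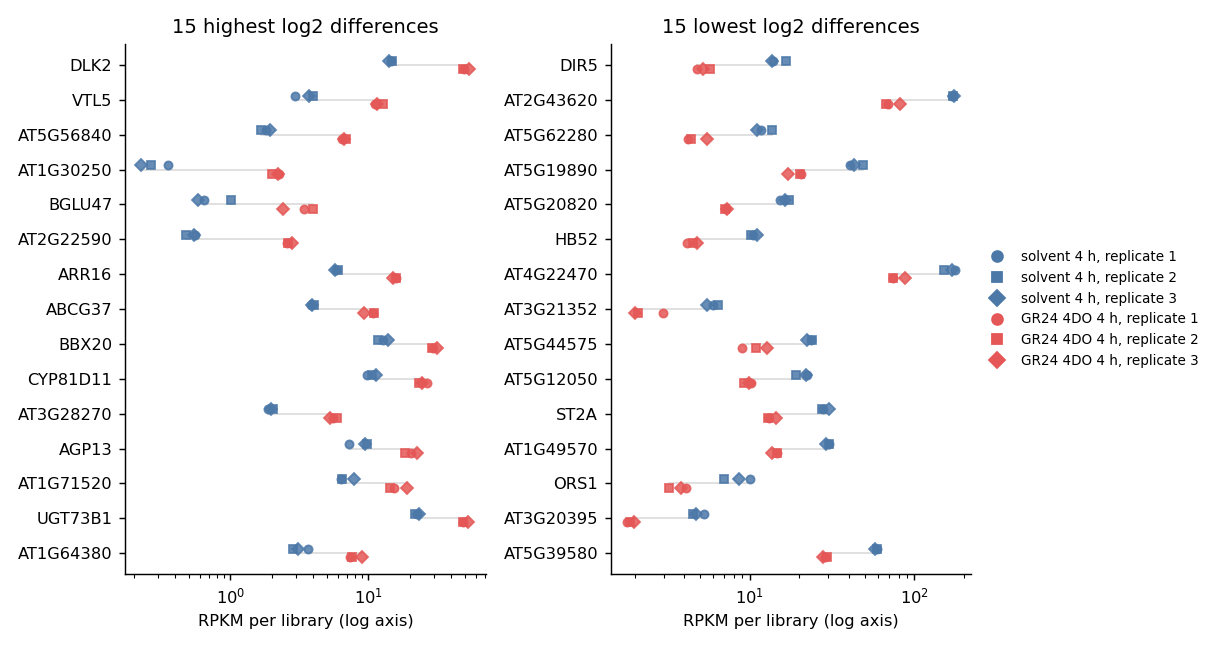
RPKM (log axis) in each of the 3 solvent libraries (blue) and the 3 GR24 4DO libraries (red) at 4 h for the 15 genes with the highest and the 15 with the lowest log2 difference among called genes. In each gene the groups do not overlap, as the rule for choosing them required, and the solvent levels run from under 1 RPKM in AT1G30250 to 176 RPKM in AT4G22470.

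Beyond the pathway itself, the most uniform of the gene lists was that of genes for detoxification of reactive electrophiles. The list was chosen with earlier results of these data known, so its uniformity is not independent evidence. In the glycosyltransferase and electrophile response list 10 of 10 tested genes were called higher with GR24 4DO than in solvent, against 4.86% over all genes. Their differences ran from 0.55 to 1.16, with a median of 0.83. In CYP81D11 and OPR1 the treated level at 4 h was below that of 0 h, and the solvent level was lower still, as given below. CYP81D11 (AT3G28740), a cytochrome P450 induced by xenobiotics and oxylipins, was at 9.81, 10.6 and 11.3 RPKM in solvent and at 26.7, 23.5 and 24.4 RPKM with GR24 4DO (difference 1.16, SE 0.07, adjusted p = 2.72e-08). OPR1 (AT1G76680), a reductase of oxylipins, was at 87.4, 93.8 and 88.7 RPKM in solvent and at 165, 165 and 157 RPKM with GR24 4DO (difference 0.85, SE 0.06, adjusted p = 4.88e-07). OPR2 rose from a mean of 19.6 to 37.8 RPKM. The glycosyltransferase genes UGT73B4 and UGT73B5 rose from 11 to 21.2 and from 19.7 to 36.4 RPKM, UGT73B3 by a difference of 0.82, UGT73C5, whose enzyme also glucosylates brassinosteroids, from 19.8 to 33.2 RPKM, and UGT74E2, whose enzyme glucosylates an auxin, from 73.9 to 109 RPKM. In the 10 genes no treated library overlapped a solvent library, as in 1704 of the 1724 called genes and 33.8% of all genes tested. With the close pairs averaged 9 of the 10 remained called, and 9 to 10 were called over the alternatives run. OPR1 and OPR2, and the UGT73B genes, are similar in sequence, and how reads that map to several places were counted is not given in the sources used here.

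Related families moved in the same direction in part, where 4.86% of all genes tested were called higher and 4.35% lower. The UDP-glycosyltransferase and cytochrome P450 families include genes of the list above, such as UGT73B4 and CYP81D11, so their counts partly repeat it. Of 108 tested genes in the UDP-glycosyltransferase family 25 rose and 4 fell, and UGT73B1 (22.4, 21.9 and 23.3 against 48.3, 49 and 52.5 RPKM; difference 1.11, adjusted p = 1.46e-08) and UGT73B2 (means 34.5 and 72.5 RPKM) had the smallest adjusted p. Of 16 tested glutathione transferases, which couple glutathione to toxic compounds, 8 rose and 1 fell. GSTU25 was at 21.3, 24.5 and 22.7 RPKM in solvent and at 43.3, 45.2 and 42.7 RPKM with GR24 4DO (difference 0.91, SE 0.08, adjusted p = 1.52e-06). GSTU24 rose from 74.9 to 121 RPKM and GSTU22 from 3.7 to 8.78 RPKM, while GSTF6 fell from 222 to 179 RPKM (adjusted p = 0.033). Of the 8 that rose, 7 belong to the tau class. Among 49 NAC factor genes 7 rose and 0 fell, among them NAC102 (37.2 to 60.3 RPKM) and NAC032 (12.1 to 21.1 RPKM), though 2 were called with the close pairs averaged. Of 142 cytochrome P450 genes 22 rose and 12 fell, or 11 and 5 with the close pairs averaged.

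In the flavonol and early flavonoid list 6 of 9 tested genes rose and 0 fell, with a median of 0.35. CHS, which makes the first flavonoid intermediate, was at 246, 215 and 246 RPKM in solvent and at 317, 308 and 332 RPKM with GR24 4DO (difference 0.44, SE 0.06, adjusted p = 0.000188). TT7, the flavonoid 3'-hydroxylase gene, was at 3.56, 3.28 and 3.92 RPKM in solvent and at 6.84, 6.4 and 7.1 RPKM with GR24 4DO (difference 0.76, SE 0.08, adjusted p = 1.03e-05). FLS1, the flavonol synthase gene, rose from 39.3 to 55.5 RPKM and CHIL, a helper of chalcone synthase, from 26.9 to 37.8 RPKM. In the anthocyanin list 4 of 10 rose and 0 fell, with a median of 0.34. MYB75, the factor that switches on anthocyanin synthesis, was at 0.777, 0.876 and 1.04 RPKM in solvent and at 2.41, 2.55 and 2.25 RPKM with GR24 4DO (difference 0.84, SE 0.10, adjusted p = 2.64e-05). The late enzyme genes DFR (0.785 to 1.57 RPKM) and LDOX (0.966 to 1.67 RPKM) rose from low levels, and the call of MYBL2, an inhibitor of the pathway, was lost in 13 of 19 alternatives. The counts with the close pairs averaged were 4 early genes and 1 anthocyanin gene.

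**Figure D4:**
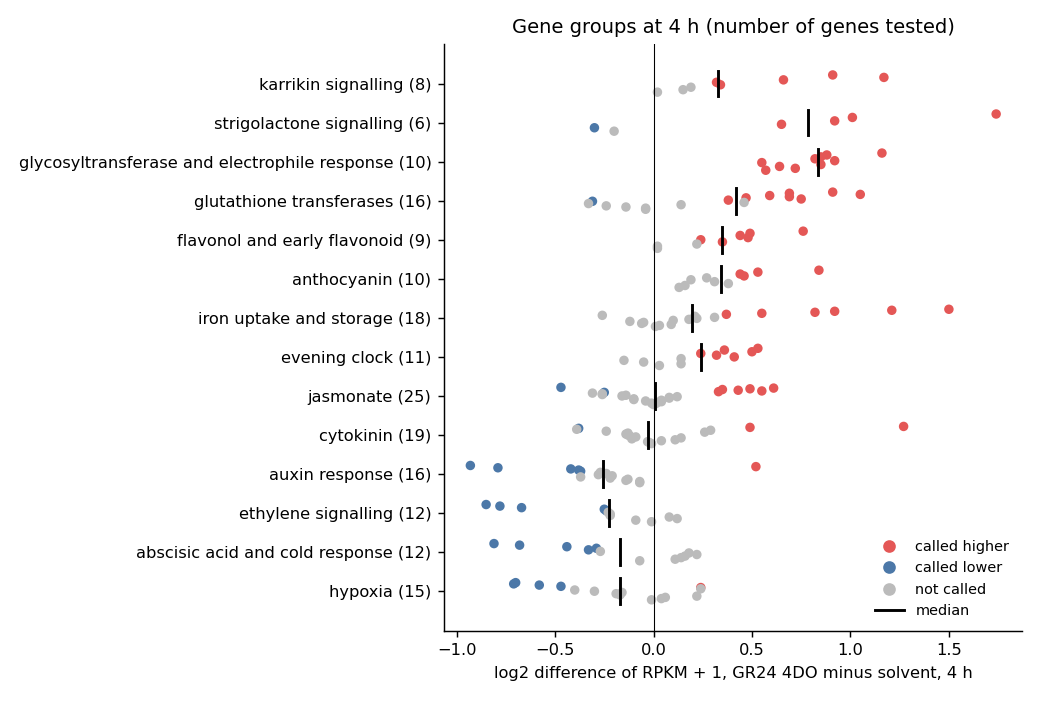
Log2 difference of RPKM + 1 between GR24 4DO and solvent at 4 h for the tested members of 14 gene lists, with the number tested in brackets; red points are called higher, blue points called lower, grey points not called, and the black bar is the median of the list. The glycosyltransferase and electrophile response list lies wholly to the right of 0.5, and the medians of the auxin response, ethylene signalling, abscisic acid and cold response and hypoxia lists are below 0.

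Genes of iron uptake rose in part. Of 18 tested iron uptake and storage genes 6 rose and 0 fell, with a median of 0.20. Besides VTL5 and ABCG37, FIT (AT2G28160), the factor that turns on iron uptake in roots, was at 3.81, 4.85 and 4.69 RPKM in solvent and at 9.48, 9.7 and 8.66 RPKM with GR24 4DO (difference 0.92, SE 0.10, adjusted p = 1.33e-05). NAS2, which makes the metal carrier nicotianamine, was at 0.466, 0.867 and 0.742 RPKM in solvent and at 1.65, 2.28 and 2 RPKM with GR24 4DO (difference 0.82, SE 0.11, adjusted p = 0.00012). NAS4 and BTS, a ligase that limits the iron response, were called at 0.55 and 0.37. Transcripts of IRT1 and FRO2, which take up and reduce iron, stayed under the minimum, with at most 5 and 25 reads. The ferritin genes FER1, FER3 and FER4, which store iron, were at -0.06, -0.05 and 0.10 and were not called. Averaging the close pairs left 4 of the 18 called.

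Of 16 tested auxin response genes 5 fell and 1 rose, with a median of -0.26 and 1 of 16 above 0. IAA19 (AT3G15540), a repressor gene of the Aux/IAA family and a quick target of auxin, was at 6.51, 6.35 and 6.63 RPKM in solvent and at 2.78, 3.11 and 2.9 RPKM with GR24 4DO (difference -0.93, SE 0.12, adjusted p = 6.53e-05). IAA5 was at 1.67, 1.22 and 1.33 RPKM in solvent and at 0.242, 0.47 and 0.474 RPKM with GR24 4DO (difference -0.79, adjusted p = 0.000468). GH3.3, which couples auxin to amino acids, fell from 7.7 to 5.52 RPKM, while its relative GH3.6 rose from 13.5 to 19.7 RPKM (difference 0.52, adjusted p = 0.000109). With the close pairs averaged 3 fell and 1 rose. In the SAUR family of small auxin-induced genes 8 of 52 fell and 1 rose, led by AT5G20820 (16.3 to 7.18 RPKM); the counts were 3 and 0 with the close pairs averaged. Of 15 transport and synthesis genes 2 rose and 3 fell. The auxin importer LAX2 fell (19.1 to 12.7 RPKM) and so did TAA1, of auxin synthesis (16.6 to 12.7 RPKM), while the root exporter PIN2 (14.3 to 18.4 RPKM) and ABCB4 (12.5 to 19 RPKM) rose; the counts were 1 and 1 with the close pairs averaged, where LAX2 and ABCB4 had adjusted p of 0.0582 and 0.234. Of 17 genes for expansins and xyloglucan enzymes, which loosen walls, 3 fell and 0 rose, and EXPA11 was at 18.7, 17.6 and 19.2 RPKM in solvent and at 11.2, 11 and 12.4 RPKM with GR24 4DO (difference -0.64, SE 0.07, adjusted p = 9.79e-06). EXPA11 and XTH16 kept their calls with the close pairs averaged, and XTH18 did not (adjusted p = 0.163).

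Of 12 tested ethylene signalling genes 5 fell and 0 rose, with a median of -0.22. ARGOS and ARL, related genes that promote organ growth and dampen ethylene sensitivity, were at 26.4, 27.8 and 25.8 RPKM and at 66, 65.1 and 62.9 RPKM in solvent. With GR24 4DO ARGOS was at 14.4, 14.2 and 14.4 RPKM (difference -0.85, SE 0.08, adjusted p = 3.69e-06) and ARL at 37.3, 36.4 and 38.2 RPKM (difference -0.78, adjusted p = 1.11e-05). The ethylene receptor gene ETR2, itself induced by ethylene, was at 14.8, 14.9 and 14.8 RPKM in solvent and at 8.92, 9 and 8.95 RPKM with GR24 4DO (difference -0.67, SE 0.07, adjusted p = 1.22e-05). CTR1 and EBF2, negative regulators of the pathway, were called at -0.25 and -0.24, and with the close pairs averaged the 3 calls left were ARGOS, ARL and ETR2. Of 6 synthesis genes ACO4 (282 to 220 RPKM) and ACS7 (9.44 to 6.88 RPKM) fell and ACS6 (11.1 to 14.2 RPKM) rose, but ACS7 and ACS6 were not called with the close pairs averaged (adjusted p = 0.145 and 0.123).

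Other hormone groups held single large changes. In the abscisic acid lists the breakdown genes CYP707A3 (2.57, 2.62 and 2.23 RPKM in solvent, 6.28, 5.71 and 5.08 RPKM with GR24 4DO; difference 0.94, adjusted p = 2.61e-05) and CYP707A1 (4.06 to 5.73 RPKM) rose. In the abscisic acid and cold response list 5 of 12 fell and 0 rose, although 5 of 12 had a difference above 0. COR15A, a protein that protects chloroplast membranes from freezing, was at 92.9, 88.9 and 90.2 RPKM in solvent and at 50.3, 50 and 53.5 RPKM with GR24 4DO (difference -0.81, SE 0.05, adjusted p = 6.57e-08). KIN2 fell from 607 to 380 RPKM and its close relative KIN1 from 39.8 to 29 RPKM; the similarity of these genes makes their separate values uncertain. Averaging the close pairs left 2 of the 12. Of 19 cytokinin genes 2 rose and 1 fell: ARR16, described above, and CKX1, a cytokinin oxidase gene (0.794 to 1.51 RPKM), rose, while ARR5, also a type-A response regulator, fell from 6.74 to 4.96 RPKM (adjusted p = 0.011). CKX1 and ARR5 were not called with the close pairs averaged (adjusted p = 0.111 and 0.138). The gibberellin synthesis gene GA3OX2 was at 3.38, 3.05 and 3.41 RPKM in solvent and at 6.38, 6.78 and 6.78 RPKM with GR24 4DO (difference 0.84, SE 0.09, adjusted p = 1.75e-05), and GAI and GID1C were called lower in the gibberellin list of 10, calls lost in 8 and 6 of 19 alternatives. In the brassinosteroid list 1 of 8 rose, CYP90D1, a call lost in 7 of 19 alternatives.

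Of 25 jasmonate genes 6 rose and 2 fell, with a median of 0.01, or 4 and 1 with the close pairs averaged. The lipoxygenase gene LOX4 rose from 5.17 to 8.38 RPKM and LOX2 from 79.1 to 101 RPKM, the repressor gene JAZ9 from 30.5 to 43.4 RPKM, and CYP94C1, of jasmonate breakdown, fell from 17.7 to 12.5 RPKM (adjusted p = 4.54e-05). In the salicylic acid and defence list 2 of 18 fell, WRKY38 (2.21, 1.88 and 2.23 against 0.597, 0.775 and 1.01 RPKM; difference -0.80, adjusted p = 0.000149) and ICS1, of salicylic acid synthesis (8.2 to 5.73 RPKM), and 0 rose. Early touch and wound genes gave 4 higher and 3 lower of 16, with WRKY33 (42.5 to 60.2 RPKM) and ZAT12 (25.6 to 33.4 RPKM) higher; the counts were 2 and 0 with the close pairs averaged. In the WRKY family 4 of 50 rose and 7 fell, against 4.86% and 4.35% over all genes, or 2 and 3 with the close pairs averaged.

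Wall-bound class III peroxidases and lipid transfer proteins held more genes called lower than higher. Over all genes tested 4.35% were called lower and 4.86% higher. Of 51 peroxidase genes 12 fell and 3 rose, and with the close pairs averaged 7 fell and 3 rose. AT5G64120, the most abundant of those described here, fell from 276 to 189 RPKM, and AT3G01190 rose from 44 to 62 RPKM. Of 66 lipid transfer protein genes 13 fell and 6 rose. EARLI1 fell from 1390 to 835 RPKM and its neighbours in sequence AT4G12490 and AT4G12500 from 149 to 87.9 and from 42 to 22.7 RPKM, whereas AT5G46890 and AT5G46900 rose from 10.2 to 20.3 and from 8.25 to 17.2 RPKM. Such similar copies may share reads. Averaging the close pairs left 5 lower and 2 higher. Of 49 genes for pectin methylesterases and their inhibitors 9 fell and 3 rose, or 2 and 1 with the close pairs averaged.

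Of 15 hypoxia genes 4 fell and 1 rose, or 3 and 0 with the close pairs averaged. HB1, a haemoglobin gene, was at 34, 32.4 and 33.7 RPKM in solvent and at 19.6, 21.4 and 19.5 RPKM with GR24 4DO (difference -0.70, SE 0.08, adjusted p = 3.55e-05). ADH1, alcohol dehydrogenase, fell from 17 to 11 RPKM and SAD6, a fatty acid desaturase gene, to 5.79 RPKM, at a difference of -0.71. In the phosphate list 2 of 11 fell, of which 1 was called with the close pairs averaged, and RNS1, a secreted ribonuclease, was at 37.3, 38.8 and 38 RPKM in solvent and at 21.4, 18.7 and 19.6 RPKM with GR24 4DO (difference -0.90, SE 0.07, adjusted p = 3.6e-07). Of 16 nitrate genes 3 rose and 2 fell, or 2 and 0 with the close pairs averaged, where LBD38 was at an adjusted p of 0.1. NRT2.1, a high-affinity nitrate transporter, was at 77.6, 64.5 and 81.6 RPKM in solvent and at 120, 117 and 126 RPKM with GR24 4DO (difference 0.70, SE 0.08, adjusted p = 2.56e-05), BT2, which restrains nitrate uptake, rose from 77.5 to 120 RPKM, and LBD38, a repressor of nitrate genes, fell from 109 to 86.7 RPKM. Of 15 sugar starvation and dormancy genes 4 rose, among them DIN10 (75.8 to 105 RPKM) and the trehalose phosphate genes TPS9 and TPS11, and EXO fell from 158 to 115 RPKM; 2 rose and 1 fell with the close pairs averaged.

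In the evening clock list 6 of 11 genes rose and 0 fell, with a median of 0.24, and 2 rose with the close pairs averaged. PRR5 was at 7.67, 7.72 and 7.3 RPKM in solvent and at 11.5, 11.6 and 11.1 RPKM with GR24 4DO (difference 0.53, SE 0.07, adjusted p = 0.000193), ELF4 rose from 94.9 to 122 RPKM, and the call of TOC1 was lost in 8 of 19 alternatives. Of 16 light signalling genes 4 rose and 2 fell, or 2 and 1 with the close pairs averaged, where HY5 was at an adjusted p of 0.17. ELIP1, an early light-induced protein of the chloroplast, was at 7.4, 6.46 and 6.92 RPKM in solvent and at 14.9, 13.9 and 14.7 RPKM with GR24 4DO (difference 0.97, SE 0.10, adjusted p = 1.11e-05). HY5, the factor that promotes light-grown development, rose from 13.7 to 17.6 RPKM and PIF3, which opposes it, fell from 15.2 to 9.95 RPKM. Light-harvesting and Rubisco genes gave 1 higher and 0 lower of 22, heat shock genes 0 and 0 of 8 and cell cycle genes 0 and 1 of 16. The morning clock list gave 1 higher (RVE2) and 0 lower of 6, and B-box factors other than BBX20 gave 0 higher and 1 lower (BBX28) of 7. HD-Zip II factors, which respond to shade, gave 0 higher and 1 lower (HAT2) of 5, and CC-type glutaredoxins 2 and 2 of 17. With the close pairs averaged, the light-harvesting call LHCB4.3 and the cell cycle call TSO2 ended, at adjusted p of 0.0548 and 0.0624. The call of RVE2 ended as well (adjusted p = 0.0912), while those of BBX28 and HAT2 held. Of the glutaredoxin calls GRX480 held, while AT4G15700, AT4G15690 and AT3G62960 were at adjusted p of 0.166, 0.212 and 0.199. Of 266 cytosolic ribosomal protein genes 1 rose and 6 fell. Of 11 tested root markers 0 were called, and EPF2, of stomatal precursors, was the 1 shoot marker of 10 that fell (9.15 to 6.45 RPKM), a call lost with the close pairs averaged. SUC2, the sucrose loader of phloem companion cells, was at 51.6, 45.2 and 52.7 RPKM in solvent and at 34.6, 35.3 and 38.8 RPKM with GR24 4DO (difference -0.45, adjusted p = 0.000892, or 0.0585 with the close pairs averaged). APL, a factor of phloem identity, was at -0.05 and was not called, and the part of phloem content in other results was not tested.

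The response at 4 h was set beside that at 2 h, where 245 of the same genes (1.31%) were called for GR24 4DO against solvent, 168 higher and 77 lower with GR24 4DO. Of these, 158 were called in the same direction at 4 h, which is 64.5% of the calls at 2 h and 9.16% of the calls at 4 h, and 5 were called in opposite directions. The difference between both responses was called for 327 genes (1.75%), 184 with a higher and 143 with a lower response at 4 h, and for 51 genes with the close pairs averaged. Responses carry a sign, so a lower one includes larger decreases as well as smaller increases. Genes of the pathways were called at both times. SMXL7 had a log2 difference of 0.81 at 2 h and 0.92 at 4 h, BBX20 1.04 and 1.17, and KUF1 0.78 and 0.66, and for none of the 3 was the difference of responses called (adjusted p = 0.858, 0.858 and 0.848). The repressor genes SMXL6, SMXL8 and SMXL2 had 0.49, 0.86 and 0.63 at 2 h and 0.65, 1.01 and 0.91 at 4 h, and their differences of responses were not called either (adjusted p = 0.806, 0.788 and 0.286). DLK2 responded more at 4 h, with 0.86 and 1.74 (adjusted p of the difference = 0.000119). Its solvent level was 9.85 ± 0.399 RPKM at 0 h, 24.8 ± 1.75 at 2 h and 14.4 ± 0.36 at 4 h (SD, n = 3), and its level with GR24 4DO was 45.7 ± 1.98 at 2 h and 50.6 ± 2.97 at 4 h.

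The electrophile response list showed the widest shift between times. Its median response was 0.03 at 2 h and 0.83 at 4 h, and the difference of responses was called for 9 of its 10 genes, or 4 of 10 with the close pairs averaged. CYP81D11 was at 36.9 ± 1.63 RPKM at 0 h (SD, n = 3) and in solvent at 30.2 ± 0.926 at 2 h and 10.6 ± 0.765 at 4 h, while with GR24 4DO it was at 26.7 ± 0.749 and 24.9 ± 1.64 RPKM. The difference of its responses was 1.33 (adjusted p = 2.51e-06). OPR1 was at 205 RPKM at 0 h, at 182 and 89.9 RPKM in solvent, and at 182 and 162 RPKM with GR24 4DO. In both genes the level with treatment was lower at 4 h than the level at 0 h, and the solvent level was lower still. UGT73B2, at 59.3 RPKM at 0 h, was at 54.6 and 34.5 RPKM in solvent and at 63 and 72.5 RPKM with GR24 4DO. AT5G61820, annotated as a stress-induced Nod 19 protein, was at 55.6 and 30.1 RPKM in solvent and at 61.4 and 63.1 RPKM with GR24 4DO (difference of responses 0.90, adjusted p = 0.000108).

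Genes with a lower, that is more negative, response at 4 h included peroxidases, a chitinase and a desaturase. AT5G39580 was at 53.7 RPKM in solvent and 53.3 RPKM with GR24 4DO at 2 h, against 58.5 and 28.7 RPKM at 4 h (difference of responses -0.99, adjusted p = 2.86e-05). AT1G49570 was at 24.9 and 20.9 RPKM at 2 h, and AT2G43620 at 147 and 132 RPKM. AT1G80130, with tetratricopeptide repeats, was at 29.9 and 30.9 RPKM at 2 h and at 43.3 and 24.5 RPKM at 4 h. SAD6 went opposite ways. Its means at 2 h were 4.99 RPKM without and 7.79 RPKM with GR24 4DO (log2 difference at 2 h 0.56, adjusted p = 0.00262), and it fell at 4 h as given above (difference of responses -1.26, adjusted p = 7.9e-05). ARGOS, ARL and ETR2 also had differences of responses that were called, at -0.82, -0.62 and -0.47.

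**Figure D5:**
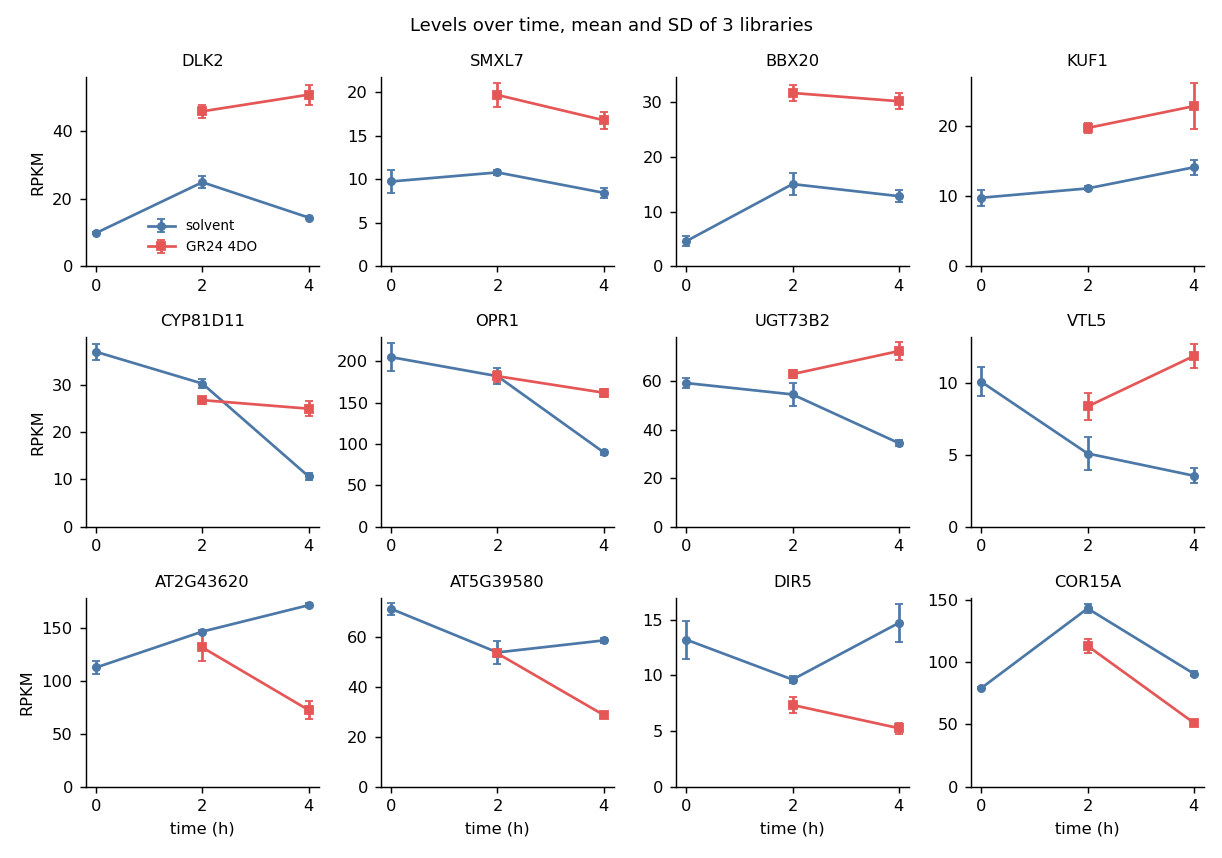
RPKM over time (0, 2 and 4 h) of 12 genes in solvent (blue circles) and with GR24 4DO (red squares); points are means and bars the SD of 3 libraries, and each vertical axis starts at 0. DLK2, SMXL7, BBX20 and KUF1 are apart at 2 h and 4 h, CYP81D11 and OPR1 separate at 4 h as solvent reaches 10.6 and 89.9 RPKM, and AT2G43620 and AT5G39580 separate at 4 h as the treated level reaches 72.7 and 28.7 RPKM.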

How the data were processed

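RNA-seq of whole seedlings had been summarised by the authors as RPKM per gene; the deposited RPKM values are reads per gene length, scaled to the reads assigned to genes in each library. Reads had been aligned with STAR to TAIR10 and counted with featureCounts, and DESeq is also named, per the submitters' processing notes; the sources used here do not give versions, strand or the handling of reads with several places. Every value above 0 in 25980 genes gave a whole read count, with a largest deviation of 0.000154 reads, and depths were 24440802 to 37446532 reads per library. In a gene of 1 kb 3 reads stand for 0.0813 to 0.119 RPKM in the libraries of 4 h, which covers counting error only.

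RPKM values were tested as log2(RPKM + 1) with limma 3.58.1 in R 4.3.3, in 1 fit of all 15 libraries by group with a trend of variance, for the 18711 genes with at least 1 RPKM in at least 3 of the 6 libraries. P-values were adjusted by Benjamini-Hochberg over these genes and genes were called under 0.05 with no minimum ratio. The difference of responses is the 4 h contrast minus that of 2 h. A count test was run only as an alternative, limma-voom on the recovered reads. Other alternatives left out each replicate of 2 h and 4 h in turn, averaged near-identical pairs, or blocked replicate numbers. Further ones changed pseudocount, filter, scaling, gene length trend or variance trend. The genes named are the 15 highest and 15 lowest called genes without overlap, each member of the lists for strigolactone signalling and synthesis and for karrikin signalling, up to 4 called members per other list and 5 per direction of the difference; further members of lists and families were named after their values were seen. The genes, lists and tests were chosen with earlier results of these data known. Upstream sequences come from RefSeq TAIR10.1.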

Additional observations from a re-analysis of the deposited data

Results flagged for a closer look

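Each gene here had a response to GR24 4DO at 4 h that differed from its response at 2 h, by a limma test of that difference with a Benjamini-Hochberg adjusted p under 0.05. The difference of responses, as log2 at 4 h minus log2 at 2 h, was called for 327 genes. The values below are those of the genes named by the rule that were among them. Responses carry a sign, so a lower one includes larger decreases as well as smaller increases.

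Among genes with a lower response at 4 h, values were -1.26 for SAD6, -1.2 for ORS1, -1.11 for AT4G22470, -1.08 for AT2G43620, -0.99 for AT5G39580, -0.97 for DIR5, -0.94 for AT5G19890 and -0.91 for AT5G44575. They were -0.85 for AT1G80130, -0.84 for HB52, -0.82 for ADH1 and ARGOS, -0.8 for RNS1, -0.79 for ST2A, -0.77 for AT1G49570 and -0.7 for AT5G20820. Smaller values were -0.64 for EXO, -0.62 for ARL, -0.6 for EXPA11, -0.58 for HB1, -0.54 for ACS7, -0.47 for ETR2 and COR15A, -0.43 for XTH16 and -0.35 for XTH18.

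Among genes with a higher response at 4 h, values were 1.33 for CYP81D11, 1.05 for GRX480, 0.97 for AT1G30250, 0.96 for AGP13, 0.92 for AT1G71520, 0.9 for AT5G61820, 0.88 for DLK2, 0.87 for VTL5, and 0.84 for OPR1 and UGT73B2. They were 0.79 for AT2G22590, 0.71 for UGT73B1 and NRT2.1, 0.62 for TT7, BT2 and RVE2, and 0.61 for GSTU24. Smaller values were 0.59 for DIN10 and ERF6, 0.58 for AT3G28270, 0.56 for LOX4, 0.55 for UGT73B4, 0.54 for LOX2, 0.52 for ZAT12, 0.47 for UGT73B3, 0.46 for LHCB4.3 and 0.41 for ACS6.

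With near-identical pairs averaged, and also without the 2 libraries that lay nearer the middle, 22 of these kept their call: ADH1, ARGOS, AT1G30250, AT1G49570, AT1G80130, AT2G43620, AT5G19890, AT5G39580, AT5G44575, AT5G61820, CYP81D11, DIR5, DLK2, GRX480, HB52, NRT2.1, OPR1, RNS1, SAD6, ST2A, UGT73B1 and UGT73B2. The second of these settings leaves only the near-identical pairs at 4 h.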

How the results depend on the processing

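Of 1724 genes called at 4 h, 464 were called with near-identical pairs averaged (260 higher, 204 lower), where the difference of responses was called for 51. Leaving out 1 library of 4 h at a time gave 899 to 1701 calls, 478 to 924 higher and 412 to 777 lower. For the difference, leaving out 1 library of 2 h or 4 h gave 198 to 329. Without solvent replicate 2 and GR24 4DO replicate 3 of 4 h, 1480 genes were called higher. Of all genes called there, 1282 were among the 1724. This alternative was chosen after seeing the data and leaves only the near-identical pairs at 4 h. The deviations of same-numbered replicates had correlations of -0.214, 0.508 and 0.425. With 3 libraries per group, and 1 in each group standing apart, these cannot show whether replicate numbers mark shared batches. The fit with the replicate block called 2762 genes, of which 1572 higher. Within the 6 libraries it called 4215 (2280 higher, 1935 lower). Other settings for which the count of calls stayed within 1.5 times the main one gave 1457 to 2461. The difference of KAI2 changed sign, to -0.01 with median-of-ratios scaling and to between -0.02 and 0.05 when 1 library was left out, and that of SMXL5 to -0.01 with the length trend removed; neither gene was called, and the cause was not tested. The median log2 difference of all genes, 0.02 in the fit reported, was -0.001, -0.006 and -0.008 with quantile normalization, median-of-ratios scaling and the length trend removed, and 0.057 without the 2 libraries named above.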
